A study of Mus musculus with 4 samples.

Results

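The kinesin genes of the mouse were followed through the cell classes of the lateral septum (LS), a forebrain region beside the ventricles, in nuclei from 3 strains of mice. A gene was taken as a member when its symbol was Kif followed by a digit, which gave 39 of 32285 genes once 1 antisense symbol, Kif16bos, was set aside. By their known roles the members were divided into 11 genes that work in mitosis or cytokinesis and 28 others, of which 3 belong to kinesin-1, 4 to kinesin-2, 6 to the transport motors of kinesin-3, 4 to the non-mitotic part of kinesin-4, 3 to kinesin-13 and the centriole, and 3 to axonemes or cilia, with 5 left over. The symbol also admits Kif1bp, which encodes a protein that binds kinesins and is no motor itself. Together the members held 743595 UMIs (counted RNA molecules) in the nuclei retained, and 36 of them had over 100. Kif2b had no UMI, which at 95% bounds its expected count over all nuclei at about 3 UMIs, Kif12 had 1 and Kif28 had 93.

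Kinesins are motor ATPases that step along microtubules. The heavy chains of kinesin-1 move mitochondria and vesicles along axons and dendrites, kinesin-2 motors move membrane cargo and the trains that build cilia, and kinesin-3 motors are fast carriers of synaptic vesicle precursors, endosomes and, in myelinating cells, messenger RNA. The mitotic kinesins push spindle poles apart, move chromosomes to the spindle equator, shorten microtubules at the kinetochore and organise the midbody. A differentiated neuron keeps its microtubules for transport, whereas a cell that divides rebuilds them into a spindle, so the same gene family serves both uses.

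Nuclei were isolated from the LS of male mice of 6 to 8 weeks and sequenced as 4 droplet libraries, each pooled from 3 mice. C57BL/6JNifdc mice gave 2 libraries (C57J 1 and C57J 2), BALB/c nude mice, which carry a mutation that leaves them without a thymus and short of T cells, gave 1 (Nude), and BALB/c mice with a thymus gave 1 (BALB/c). No mouse had been treated, C57J 1 came from batch 1 and the other libraries from batch 2. The files held 12558 to 17025 barcodes and 72912922 to 125998527 UMIs per library. After limits on genes, UMIs and mitochondrial share and the removal of predicted doublets 10866 to 12945 nuclei per library remained, with a median depth of 4172 to 8365.5 UMIs that was highest in BALB/c, and 29 to 63 barcode sequences were shared by any pair of libraries. Where 4 values stand in a row they belong to C57J 1, C57J 2, then Nude, then BALB/c, and each gives the UMIs of the gene per 1000000 UMIs of the class (CPM). Levels were compared between classes and never between genes, because longer genes can yield more UMIs in nuclei.

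Clusters were built without the 39 members and named from marker genes as LS neuron-like, OL-like and so on, and the ending is left off from here. The 49113 nuclei held 16870 LS neurons, 3188 striatal neurons, 1103 GABAergic neurons marked by Lhx6, 126 cholinergic neurons, 1001 glutamatergic neurons, 701 neuroblasts, 347 dividing nuclei, 7524 astrocytes, 1876 OPCs (oligodendrocyte precursor cells), 81 newly formed OLs (oligodendrocytes), 4182 OLs, 1260 microglia and 39 ependymal nuclei. All markers listed for these classes were detected in them, and 8848 neurons, 1151 nuclei with OL markers and 816 others stayed unnamed. Dissection and the isolation of nuclei can set these shares, so they were not compared. In nuclei other than neurons UMIs of Snap25, Rbfox3, Syt1 and Grin2b, markers of neurons, were counted. They reached at most 0.615 of their neuronal level in OLs, 0.563 in OPCs, 0.473 in astrocytes and 0.675 in microglia, in each case by Snap25. The ratios of Snap25 in these classes were lowest in BALB/c. Whether these UMIs came from free neuronal RNA was not tested. A kinesin under the highest ratio of its class is described as within the marker ratio, which does not give the source of its UMIs.

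**Figure D1:**
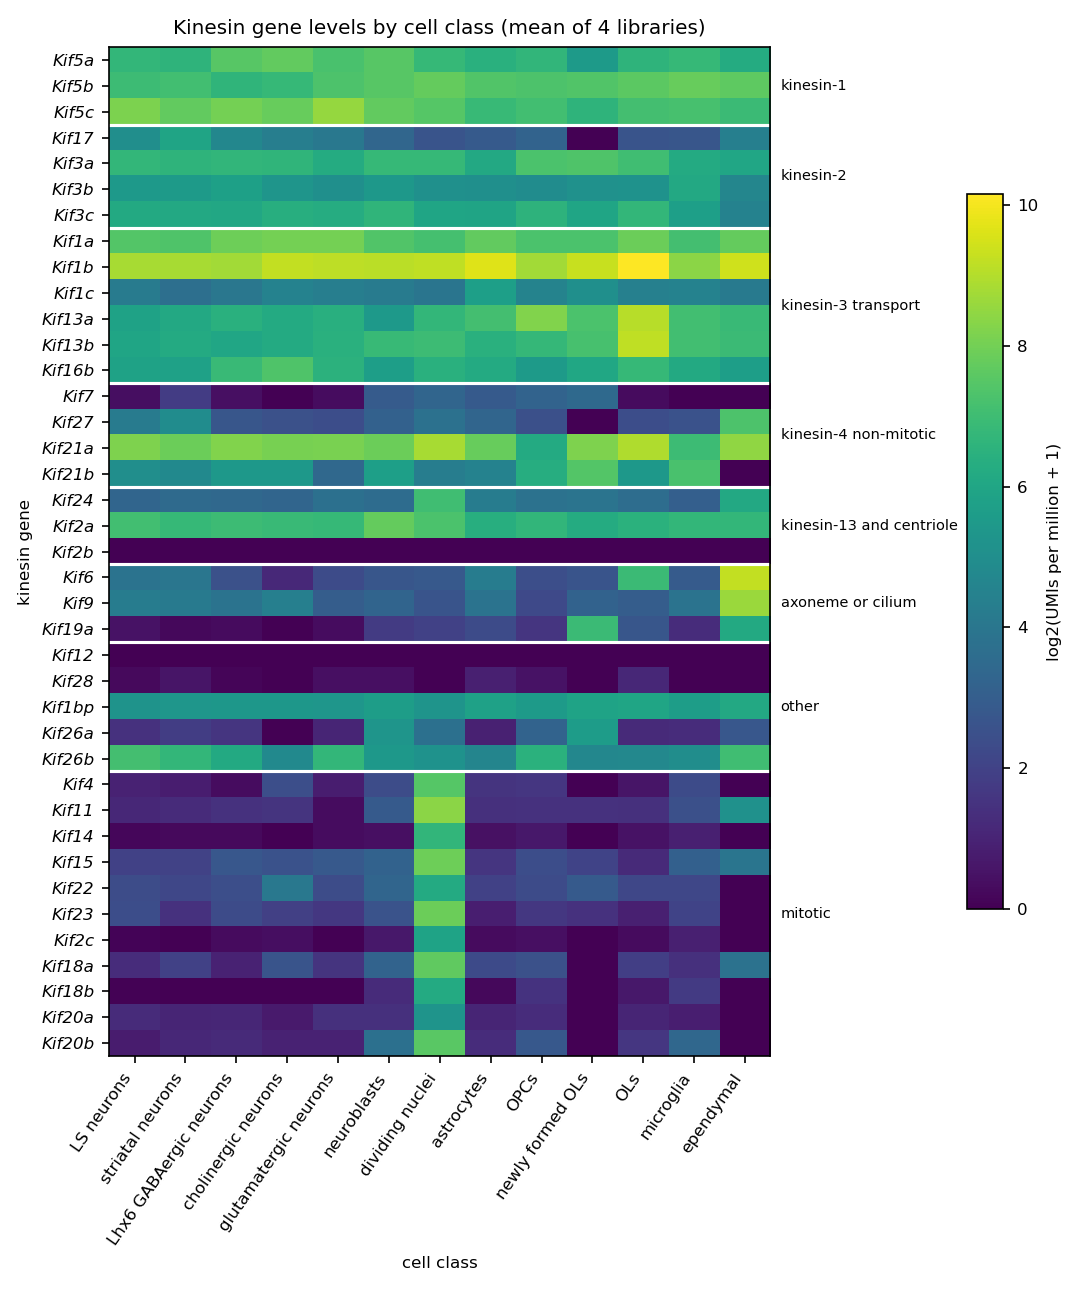
Mean level of each of the 39 kinesin genes (rows, grouped by role) in 13 cell classes (columns), as log2 of CPM plus 1, each cell the mean of 4 libraries. The 11 mitotic genes form a bright block in the column of dividing nuclei, Kif1b, Kif13a and Kif13b are brightest in OLs, and Kif6, Kif9 and Kif27 are brightest in ependymal nuclei.

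The 11 mitotic kinesins had their highest level in dividing nuclei, and for each of them the lowest of the 4 libraries there lay above the highest library of every other class. Summed, they reached 1322, 2012, 1597 and 1943 CPM in dividing nuclei, where they made up 34.14% to 42.6% of the UMIs of all members. In neuroblasts, taken as the nearest class of young cells outside the dividing nuclei, the sum was 46.6, 42.8, 95.1 and 46.3 CPM. In LS neurons it was 15.8, 19.4, 17.3 and 16.4. The dividing nuclei were recognised by other genes of the cell cycle, such as Mki67 and Top2a, so these levels describe the class and were not tested.

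Kif11, the motor that slides spindle poles apart, stood at 329.7, 409, 279.8 and 304 CPM in dividing nuclei against 4.44, 3.3, 13.6 and 3.97 in neuroblasts. Kif15, which acts beside Kif11 on the bipolar spindle, stood at 192, 261, 227 and 278 against 4.44, 13.2, 10.2 and 5.29. Kif23, the motor of the centralspindlin complex at the midbody, stood at 151, 341, 233 and 210.4 against 6.66, 3.3, 10.2 and 0. For each of these genes the libraries of dividing nuclei lay far above those of neuroblasts. Kif20b, another motor of cytokinesis, was at 132, 227, 192 and 193 and remained detectable in neuroblasts at 6.66, 19.8, 6.79 and 17.2. Kif4, a chromosome-bound motor that limits the length of midzone microtubules, was at 126, 182, 139.9 and 269.9 CPM in dividing nuclei. Kif18a, which damps the movements of chromosomes at the metaphase plate, was at 148, 233, 122 and 321. For both genes the C57J libraries and the other libraries overlapped. Kif14, a midbody motor, had 56.5, 131, 122 and 93.5 CPM. Kif18b, which shortens astral microtubules, had 78.5, 51.2, 93.3 and 68, and Kif22, the chromokinesin that helps hold chromosomes on the spindle, had 50.2, 85.3, 81.6 and 74.4. The remaining pair were the most weakly counted of the list. Kif2c, a depolymerase at the centromere, had 34.5, 45.5, 58.3 and 97.8 CPM on 75 UMIs, and Kif20a, needed for the final cut between daughter cells, had 25.1, 45.5, 46.6 and 31.9 on 39 UMIs.

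Within the dividing nuclei the mitotic kinesins were higher where listed G2/M genes held a larger share. The 319 nuclei with a UMI of the listed S or G2/M genes were divided at the median share of G2/M UMIs, 60%, into 159 high and 160 low nuclei with median depths of 2716 and 2627.5 UMIs, while 28 nuclei had no such UMI. All 11 mitotic members were higher in the high group in 4 of 4 libraries. Kif11 stood at 608, 619, 407 and 401 CPM in the high group against 160.4, 209, 175 and 178 in the low group, and Kif23 stood at 292, 510.1, 384 and 309 against 63, 181, 87.4 and 78.4. Kif15 differed less, at 292, 391, 283 and 342 against 137, 139, 204 and 199. Kif11 and Kif15 were therefore present in the low group too, where Kif2c was at 0, 13.9, 0 and 26.1. Among the other members Kif13a and Kif21b were higher in the high group in 4 of 4 libraries, the latter on 16 against 3 UMIs. Kif21a was higher there in 1 of 4 libraries. No test was made on this split, which was itself set by G2/M genes. The share of all genes that were higher in 4 of 4 libraries was not counted.

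**Figure D2:**
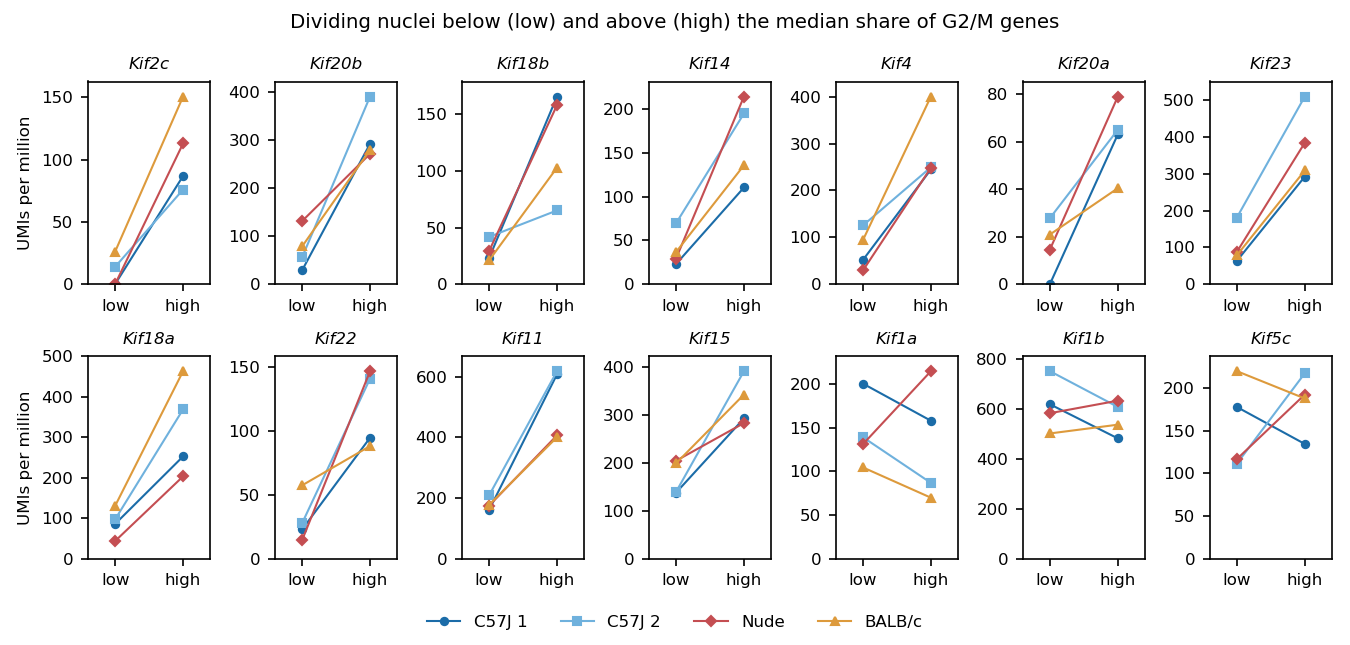
Levels (CPM) of the 11 mitotic kinesins and of Kif1a, Kif1b and Kif5c in dividing nuclei below (low, 160 nuclei) and above (high, 159 nuclei) the median share of G2/M UMIs, with 1 line per library. The lines of the mitotic genes rise in all 4 libraries, whereas Kif1b and Kif5c rise in 2 of 4 and Kif1a in 1 of 4.

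The promoters of these genes are shown because a common element of late cell cycle genes, the cell cycle homology region with the letters TTTGAA or TTCGAA, is known to lie close to the start of many of them, often beside a CCAAT box. RefSeq promoters (GRCm38.p6, 250 bases before and 50 after the start) were matched for 10 of the 11 mitotic genes and for 21 others. Below are the 120 bases that end just before the start, read 5′ to 3′ on the strand of the gene, and capitals mark CCAAT as well as TTTGAA and TTCGAA on either strand (on the other strand CCAAT reads ATTGG and TTTGAA reads TTCAAA). Kif11, Kif15 and Kif22 hold TTCAAA close to the start, Kif18b holds CCAAT boxes without it in this stretch, Kif24 is the member outside the list with TTCGAA, and Kif18a is the mitotic member that holds none of the 3 motifs.
Kif11 (chr19:37376262-37376381, plus strand): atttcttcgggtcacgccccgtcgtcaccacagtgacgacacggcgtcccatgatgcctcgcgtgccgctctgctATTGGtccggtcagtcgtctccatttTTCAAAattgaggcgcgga
Kif15 (chr9:122950961-122951080, plus strand): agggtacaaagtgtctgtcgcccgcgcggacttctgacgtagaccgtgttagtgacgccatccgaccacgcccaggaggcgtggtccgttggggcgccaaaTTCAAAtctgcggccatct
Kif22 (chr7:127042421-127042540, minus strand): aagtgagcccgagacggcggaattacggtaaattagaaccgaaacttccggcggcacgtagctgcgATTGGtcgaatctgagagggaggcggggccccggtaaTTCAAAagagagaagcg
Kif18b (chr11:102925125-102925244, minus strand): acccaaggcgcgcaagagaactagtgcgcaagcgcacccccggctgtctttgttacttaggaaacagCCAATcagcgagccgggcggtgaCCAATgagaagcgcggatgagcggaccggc
Kif24 (chr4:41464849-41464968, minus strand): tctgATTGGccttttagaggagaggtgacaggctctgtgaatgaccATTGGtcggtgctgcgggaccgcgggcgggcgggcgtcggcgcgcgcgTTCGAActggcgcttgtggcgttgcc
Kif18a (chr2:109280618-109280737, plus strand): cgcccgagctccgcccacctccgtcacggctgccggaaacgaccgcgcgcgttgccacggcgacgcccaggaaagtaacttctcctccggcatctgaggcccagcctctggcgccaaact
Over the whole windows and both strands, TTTGAA was found in 9 of 10 mitotic promoters, all but that of Kif18a, and in 3 of 21 of the other members, against 17.9% of 32851 promoters. CCAAT was found in 6 of 10 and 8 of 21, against 37.4%, and TTCGAA in 0 of 10 and 1 of 21, against 1.6%. TTCGAA reads the same on both strands. The windows of Kif14, Kif2c and Kif4, which all hold TTTGAA, lie inside the genes as annotated by GENCODE. The 5′ ends of these genes are at 136466343, 117182639 and 100625737, while the stretches before the RefSeq starts end at 136467847, 117178773 and 100626064. Whether these windows act as promoters was not tested. A match describes the sequence and is not evidence that a factor binds there.

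The class contrast of dividing nuclei with neuroblasts was tested for the other members, of which 25 of 28 passed the filter on low counts. A gene was called when its adjusted p in the edgeR quasi-likelihood test was under 0.05 and its log2 fold change was beyond 0.5 in size. In this contrast 3 members were higher and 5 lower, where 7.7% of all 13813 genes tested were called higher and 6.54% lower. Kif24, a motor of the mother centriole that restrains the growth of cilia, stood at 138, 90.9, 122 and 166 CPM in dividing nuclei against 13.3, 9.89, 13.6 and 7.93 in neuroblasts (log2 fold change 3.52 ± 0.33 (SE), adjusted p = 1.792e-11). All 4 libraries lay apart, and outside the dividing nuclei the next levels were the ependymal ones, 28.6, 38.9, 23 and 186. The dividing nuclei were recognised by cell cycle genes, so for a gene tied to the cell cycle such a fold describes the class. Whether Kif24 is such a gene was not tested. Kif13a, a carrier of endosomes that also serves at the midbody, had 109.9, 102, 87.4 and 123 in dividing nuclei against 31.1, 56, 57.7 and 31.7 in neuroblasts (log2 1.25 ± 0.21, adjusted p = 1.411e-05). The lineage of the dividing nuclei was not determined. OPCs had a mean of 300 CPM of Kif13a, and the part of lineage in this contrast was not tested. Kif21a, which halts microtubule growth at the cell cortex, had 414, 387, 489.6 and 527 against 246, 227, 234 and 223 (log2 0.81 ± 0.14, adjusted p = 1.677e-05). The falls were those of Kif26a, an atypical kinesin that acts in the enteric nervous system (log2 -2.07 ± 0.62, adjusted p = 0.0182), Kif21b (-1.82 ± 0.41, adjusted p = 0.001165), Kif5a (-0.97 ± 0.24), Kif3c (-0.87 ± 0.20) and Kif2a (-0.67 ± 0.15). Kif26a had 9.42, 11.4, 23.3 and 6.38 CPM in dividing nuclei and 28.9, 65.9, 10.2 and 47.6 in neuroblasts, so that Nude ran against the other libraries, and Kif21b had 18.8, 11.4, 35 and 10.6 against 42.2, 52.7, 57.7 and 58.2. The call of Kif26a was lost without C57J 2 (-1.79) or without BALB/c (-1.49). Without BALB/c those of Kif5a (-0.62, adjusted p = 0.1894) and Kif3c (-0.79, adjusted p = 0.08478) were lost too, which left 2 members called lower.

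The remaining class contrasts set 6 classes against LS neurons, in 1 fit over 12 classes and 4 libraries with the library as a term, and all of them share the LS neurons. Of the 39 members 36 were tested. The mitotic ones passed the filter through the dividing nuclei, and Kif7 and Kif19a through classes other than LS neurons. In striatal neurons 4 members were higher and 1 was lower, where 11.4% and 12.3% of all genes were called in these directions. In astrocytes 8 were higher and 14 lower, against 27.6% and 26.7%, and in OLs 10 were higher and 9 lower, against 26.1% and 30.1%. In OPCs 9 were higher and 11 lower, against 21.3% and 24%, in microglia 8 were higher and 12 lower, against 27.1% and 27.7%, and in neuroblasts 7 were higher and 9 lower, against 17.5% and 21.2%. Most of these shares of 36 were near those of all genes, so the counts say little about kinesins as a family. Of the 25 non-mitotic members tested, 3 were higher and 0 lower in striatal neurons, 6 and 11 in astrocytes and 8 and 6 in OLs. The numbers were 6 and 10 in OPCs, 3 and 12 in microglia and 3 and 9 in neuroblasts. In astrocytes, OPCs, microglia and neuroblasts the share called lower exceeded that of all genes, a difference that was not tested. What follows describes single genes. Without Nude 4 of the 36 members were higher in neuroblasts, and without BALB/c 7 were lower in OPCs and 5 higher in microglia. In striatal neurons 2 were lower without C57J 1, without C57J 2 or without BALB/c. These counts include mitotic members, and the share of all genes called in a single direction was not counted. In either direction 12 of 36 members and 4851 of 14130 genes were called in neuroblasts without Nude. Without BALB/c 16 members and 5921 of 13758 genes were called in OPCs, 16 and 6889 in microglia and 5 and 3252 in striatal neurons. Striatal neurons had 5 members and 2698 of 13858 genes without C57J 1, and 5 and 2985 of 14057 without C57J 2. The median log2 fold change of the 25 non-mitotic members tested was -0.79 in microglia, -0.48 in astrocytes, -0.27 in OPCs, -0.26 in neuroblasts, -0.04 in striatal neurons and 0.15 in OLs, with medians of all genes between -0.06 and 0.01.

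Kinesin-1 heavy chains move most of the fast cargo of axons, and of the 3 genes Kif5c was lower in glia than in LS neurons throughout. Its level was 284, 267, 281 and 308 CPM in LS neurons and 378, 338, 362 and 412 in glutamatergic neurons, while astrocytes had 135, 101, 129 and 85.2, OPCs 151, 131, 155 and 104, OLs 177, 106, 169 and 108 and microglia 184, 161, 143 and 93.6. Every library of these glial classes lay below every library of the LS neurons. The highest library ratio of Kif5c to its neuronal level was 0.507 in astrocytes, 0.576 in OPCs, 0.666 in OLs and 0.695 in microglia. These ratios lay little above the highest of the neuronal markers, 0.473, 0.563, 0.615 and 0.675. How much of the glial level was free neuronal RNA was not tested. Against LS neurons the log2 fold change of Kif5c was -1.58 ± 0.13 in astrocytes (adjusted p = 2.418e-14), -1.40 ± 0.15 in microglia (adjusted p = 2.544e-11), -1.28 ± 0.14 in OPCs (adjusted p = 6.676e-11), -1.23 ± 0.14 in OLs (adjusted p = 5.376e-11) and -0.79 in neuroblasts, whose levels were 271, 191, 197 and 182. Striatal neurons, at 209, 185, 205 and 236, also lay below but were not called.

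Kif5b, the heavy chain found in all tissues, was present everywhere and was not called in any of the 7 class contrasts, with 146, 142, 107 and 99.9 CPM in LS neurons, 246, 222, 155 and 142 in OLs and 237, 263, 181 and 197 in microglia. Its differences in OLs (log2 0.44 ± 0.11) and microglia (0.43 ± 0.11) had adjusted p values of 0.000319 and 0.00108 but were under the limit on size. Kif5a, the heavy chain that carries neurofilaments, had 117, 106, 98.8 and 92.6 in LS neurons and 215, 185, 153 and 169 in neuroblasts. In astrocytes Kif5a was lower (log2 -0.56 ± 0.16), at 141, 75, 75 and 54.4, where C57J 1 lay above all libraries of the LS neurons, and in OPCs, OLs and microglia it was not called. The astrocyte call was lost without C57J 2 (-0.45) and without BALB/c (-0.34), and DESeq2 gave -0.44, under the limit on size. The same library, of batch 1, was highest for Kif5a in microglia, at 205 against 81.3, 84.8 and 67.8. The sum of the 3 heavy chains was 684 ± 54.8 CPM (SD, n = 4 libraries) in glutamatergic neurons, 513 ± 26.1 in LS neurons and 367 ± 86.5 in astrocytes.

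Of kinesin-2, Kif3a and Kif3b form the heterodimer that drives transport in cilia, Kif3c pairs with Kif3a in neurons, and Kif17 works as a homodimer that carries NMDA receptor subunits in dendrites. Kif17 was the neuronal one. Striatal neurons had 64.5, 61.4, 54.8 and 61 CPM, LS neurons 32, 28.5, 31.4 and 32.3, and glutamatergic neurons 11.4, 15.9, 16.9 and 18.5, with no overlap between these 3 classes. Striatal neurons were higher than LS neurons (log2 0.96 ± 0.13, adjusted p = 4.559e-08). The glial classes had 3.55 to 11.6 CPM, and Kif17 was lower than in LS neurons by fits of -2.90 ± 0.19 in OLs (adjusted p = 4.303e-17), -2.90 ± 0.29 in microglia (1.798e-11), -2.53 ± 0.16 in astrocytes (3.313e-18) and -2.19 ± 0.20 in OPCs (8.923e-13). In neuroblasts it was lower as well (-2.32 ± 0.30, 2.977e-08), at 8.88, 9.89, 13.6 and 3.97. The remaining glial levels of Kif17 lay within the ratios of the neuronal markers in all 4 glial classes.

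Kif3a was high in the OL lineage and in neurons and lower in astrocytes and microglia. OPCs had 147, 144, 162 and 158 CPM and LS neurons 102, 107, 99.9 and 109, a difference that was under the limit on size (log2 0.37 ± 0.11). Astrocytes had 60.5, 76.2, 69.7 and 70.4 (log2 -0.82 ± 0.11, adjusted p = 6.21e-09) and microglia 68.3, 87.1, 80.3 and 56.7 (-0.96 ± 0.13, 4.194e-08). Its partner Kif3b, at 41.6, 41, 41.4 and 45.8 in LS neurons, was lower in astrocytes (-0.62 ± 0.14) and OPCs (-0.76 ± 0.17, but -0.45 and not called without BALB/c), whereas microglia had 56.3, 77.5, 51.3 and 89.9 and were not called (0.32 ± 0.17, adjusted p = 0.1123). The 2 partners thus took different orders over the glial classes. Kif3c had 76.1, 70.8, 69.5 and 70 CPM in LS neurons and 93.2, 98.9, 98.5 and 106 in neuroblasts. It was lower in microglia (-0.90 ± 0.15, adjusted p = 1.596e-06), at 56.3, 60, 53.5 and 38.2, and in dividing nuclei compared with neuroblasts, at 50.2, 68.2, 69.9 and 61.6.

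**Figure D3:**
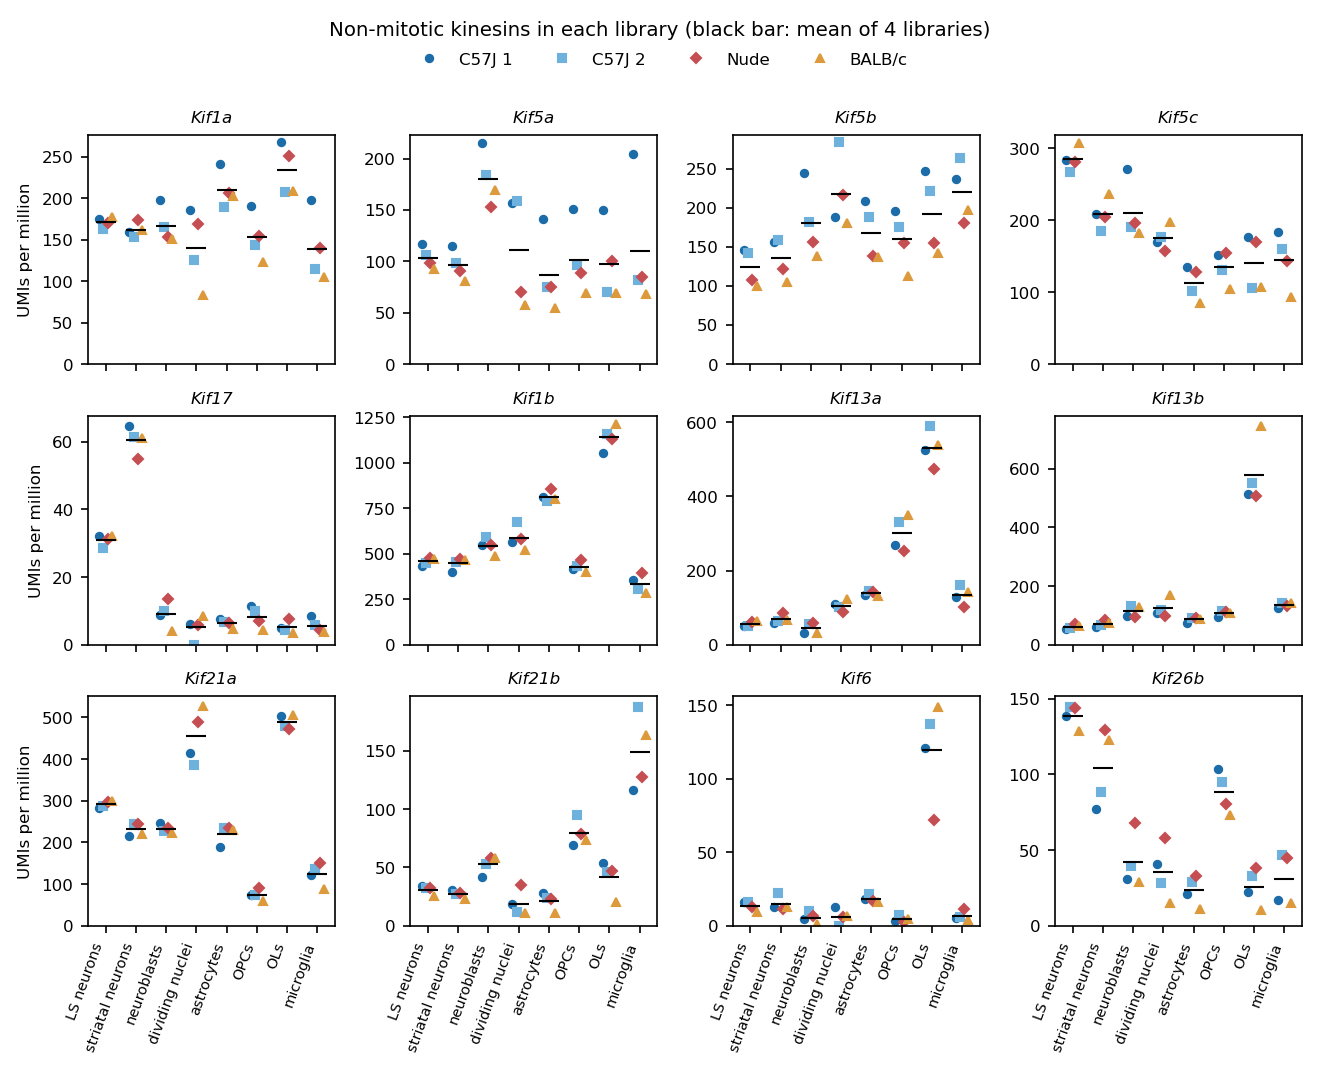
Levels (CPM, linear axes from 0) of 12 non-mitotic kinesins in 8 classes, with 1 point per library and a bar at the mean of 4 libraries. Kif5c and Kif17 are highest in neurons, Kif1b, Kif13a, Kif13b and Kif6 in OLs, and Kif21b in microglia, and for Kif5b the C57J points lie above the Nude and BALB/c points in every class shown but dividing nuclei.

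Of the 6 transport motors of kinesin-3, Kif1b, Kif13a and Kif13b had their highest levels in OLs, apart from the libraries of all other named classes, whereas Kif1a (log2 0.26 ± 0.12, adjusted p = 0.05726) and Kif1c (0.02 ± 0.14) were not called there. Summed over their 6 genes the level was 2616 ± 188 CPM in OLs (SD, n = 4 libraries), 1374 ± 41.2 in astrocytes and 822 ± 39.0 in LS neurons, and in OLs these genes held 58.38% to 66.51% of all kinesin UMIs against 34.41% to 36.98% in LS neurons. Kif13b, whose protein binds the scaffold hDlg and limits myelin growth in OLs, had 513, 550.0, 507 and 746 CPM in OLs against 53.3, 57, 70.4 and 65.5 in LS neurons (log2 3.06 ± 0.12, adjusted p = 9.881e-26). Kif13a had 524, 590.2, 473 and 539 in OLs against 51.5, 51.8, 60.8 and 64.5 (3.04 ± 0.12, 1.07e-25). Kif1b, the carrier of mitochondria and synaptic vesicle precursors that is also needed to bring myelin protein mRNA into OL processes, had 1056, 1159, 1131 and 1213 against 431, 449, 479 and 473 (1.14 ± 0.12, 5.409e-12). No library of the OLs came near the range of the LS neurons for any of these genes, which lie on chromosome 14 (Kif13b, 64647265-64809617), chromosome 13 (Kif13a, 46749087-46929867) and chromosome 4 (Kif1b, 149176319-149307693) of GRCm38.

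Along the OL lineage the 2 Kif13 genes parted. Kif13a stood at 269, 332, 252 and 349 CPM in OPCs (2.21 ± 0.12 against LS neurons, adjusted p = 1.575e-20), at 119, 138, 166 and 189.6 in newly formed OLs and at 473 to 590.2 in OLs. Kif13b stood at 96.6, 116, 113 and 109 in OPCs (0.63 ± 0.12), at 133, 111, 111 and 227 in newly formed OLs and at 507 to 746 in OLs. Kif13a was thus well above its neuronal level in OPCs already, whereas of these 3 classes Kif13b had a large level only in OLs, with the 81 newly formed OLs given as levels and not contrasted. Elsewhere Kif13a was higher in astrocytes (1.06 ± 0.12, adjusted p = 5.223e-11) and microglia (0.83 ± 0.13) and lower in neuroblasts (-0.82), and Kif13b was higher in microglia (0.73 ± 0.13) and neuroblasts (0.55). The OLs of BALB/c fell largely in other clusters than those of the other libraries. In 2 OL clusters BALB/c held 656 of 741 and 694 of 792 nuclei, and in another it held 21 of 1985. The part of this in the higher Kif13b level of the BALB/c OLs was not tested.

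Kif1b was also higher in astrocytes (log2 0.61 ± 0.11, adjusted p = 7.921e-06), at 811, 789, 856 and 801 CPM, and lower in microglia (-0.87 ± 0.12, 2.892e-08), at 355, 308, 395 and 282. Kif1c, a carrier of integrins and dense-core vesicles, had its highest level in astrocytes. It had 51.1, 55.1, 55.3 and 46.5 there against 17.4, 17.2, 17.7 and 18.5 in LS neurons (1.33 ± 0.12, adjusted p = 1.274e-13), and its libraries in astrocytes lay above those of every other class. Kif1a, the main carrier of synaptic vesicle precursors, was not restricted to neurons in these nuclei. It had 175, 162, 171 and 177 in LS neurons, 241, 189, 206 and 203 in astrocytes and 268, 207, 250.4 and 209 in OLs, and among the 6 classes it was called in microglia only, where it was lower (-0.73 ± 0.14, adjusted p = 1.022e-05), at 198, 114, 141 and 105. Glutamatergic neurons had more, 296, 234, 251 and 269, and were not contrasted. Kif16b, which positions early endosomes, was higher in OLs (0.83 ± 0.13, adjusted p = 2.736e-07), at 97.2, 92.7, 103 and 153 against 56.5, 53.9, 58.7 and 55.2 in LS neurons. It was lower in OPCs (-0.53 ± 0.15, adjusted p = 0.001975) and neuroblasts (-0.51 ± 0.19, adjusted p = 0.02482), both close to the limit on size. The OPC call was lost without C57J 1 (-0.43), without Nude (-0.42) and without BALB/c (-0.42). The neuroblast call was lost without any 1 library, at adjusted p from 0.0586 to 0.1001, and DESeq2 gave an adjusted p of 0.07722.

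In kinesin-4 the 4 members outside mitosis each took another pattern. Kif7, the regulator of Hedgehog signalling at the tip of the primary cilium, was nearly absent from LS neurons, with 45 UMIs in 16870 nuclei. Its level there was 0.326, 0.41, 0.31 and 0.21 CPM, and it was 6.15, 7.04, 6.31 and 6.11 in astrocytes, 7.73, 9.26, 11.1 and 5.4 in OPCs and 2.22, 6.59, 13.6 and 3.97 in neuroblasts. All of these libraries lay above the LS neurons (log2 4.08 ± 0.30 in astrocytes, adjusted p = 1.604e-15, and 4.43 ± 0.36 in OPCs, adjusted p = 7.217e-14). Striatal neurons, at 3.41, 1.21, 3.2 and 2.15, were higher too (2.98 ± 0.36, adjusted p = 7.3e-09), while OLs had 2 UMIs in all and microglia none. Kif7 did not pass the filter on low counts among the LS neuron clusters, so it entered this fit through classes where it was higher. Its adjusted p values are therefore listed and not read as support. Kif27, its relative that is needed for motile cilia, was higher in striatal neurons (0.77 ± 0.18), at 25.1, 36.9, 21.9 and 35.4 against 14.3, 17.9, 21.4 and 17.8 in LS neurons, and lower in the 4 glial classes.

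Kif21a and Kif21b, which both pause the growth of microtubules, were called in opposite directions in OPCs and microglia and in the same direction in astrocytes. Kif21a had 283, 287, 297 and 301 CPM in LS neurons, 502, 479, 473 and 507 in OLs (0.58), 73.4, 73.3, 89.9 and 59 in OPCs (-2.18 ± 0.13, adjusted p = 2.024e-19) and 121, 136, 149 and 87.5 in microglia (-1.67 ± 0.13, 4.415e-15). In OPCs and microglia these levels were within the ratio of the neuronal markers. Kif21b had 34.2, 32.2, 32 and 25.7 in LS neurons, 69.5, 95.2, 78.7 and 73.4 in OPCs (1.19 ± 0.17, adjusted p = 8.095e-08) and 116, 188, 127 and 164 in microglia (1.89 ± 0.18, 1.646e-12). In astrocytes both were lower than in LS neurons, Kif21a at 188, 235, 234 and 229 (-0.62 ± 0.12, adjusted p = 7.934e-06) and Kif21b at 28.3, 23.6, 22.7 and 11.1 (-0.80 ± 0.17, adjusted p = 7.027e-05). In OLs Kif21b had 54.1, 46.1, 47 and 20.3 and was not called (0.17 ± 0.17).

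The 39 ependymal nuclei, whose tufts of motile cilia move the ventricular fluid, stood apart for Kif6, Kif9 and Kif27. Kif6, a motor of ependymal cilia, had 257, 622, 507 and 973 CPM there, Kif9, a motor of the central apparatus of the axoneme, had 171, 544, 369 and 501, and Kif27 had 85.7, 156, 115 and 272. Each of these libraries lay above all libraries of the other classes, with 7 to 11 nuclei behind each value, too few for the fit. Kif6 also had a large level in OLs, at 121, 137, 72.1 and 149 against 16.2, 16, 13 and 9.31 in LS neurons (log2 3.00 ± 0.16, adjusted p = 9.434e-21). Kif9 was lowest in OPCs, at 1.29, 5.89, 4.77 and 2.88 against 18.5, 19.7, 18.7 and 15.8 in LS neurons (-2.55 ± 0.28, adjusted p = 8.25e-11). Kif19a, which trims the tips of cilia, had 147, 152, 111 and 75.8 CPM in newly formed OLs and 85.7, 77.8, 46.1 and 71.6 in ependymal nuclei, on 44 and 12 UMIs. No other named class exceeded 11.7 in any library. It was called in OLs (3.43 ± 0.42, adjusted p = 1.845e-09), where it had 5.77, 9.8, 2.58 and 3.89, and in astrocytes (3.05 ± 0.38, 2.944e-09), where it had 4.39, 2.77, 3.53 and 5.27, against 0.335 to 0.535 in LS neurons. OPCs were higher as well (1.88), but this call was lost without C57J 1 (adjusted p = 0.05383) and without C57J 2 (adjusted p = 0.07941). Kif19a, like Kif7, did not pass the filter among the LS neuron clusters and entered the fit through classes where it was higher. Its adjusted p values are likewise not read as support.

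Kif26a and Kif26b encode kinesins whose motor domain does not hydrolyse ATP, and Kif26b takes part in cell adhesion and polarity in development. LS neurons had 138, 145, 144 and 128 CPM of Kif26b. Ependymal nuclei, at 85.7, 77.8, 69.1 and 286, overlapped them, and striatal neurons, at 76.9, 88, 129 and 122, were not called different (log2 -0.42 ± 0.19, adjusted p = 0.09096). Astrocytes had 20.9, 29.2, 32.8 and 11 (log2 -2.87 ± 0.21, adjusted p = 3.01e-16), OLs 22.2, 32.8, 38 and 10.3 (-2.76 ± 0.23, 1.153e-14), microglia 17.1, 46.5, 44.6 and 14.8 (-2.68 ± 0.28, 2.26e-11) and neuroblasts 31.1, 39.5, 67.9 and 29.1 (-2.15 ± 0.29, 2.776e-08). In astrocytes, OLs and microglia the level that remained was within the ratio of the neuronal markers. It was lowest in BALB/c, where the Snap25 ratios of these classes were lowest too, and a link between them was not tested. OPCs, at 104, 95.2, 80.3 and 73.4, were lower as well (-0.83) but stood above that ratio in all 4 libraries. Kif26a was higher in neuroblasts than in LS neurons (4.16 ± 0.43, adjusted p = 9.671e-11), at 28.9, 65.9, 10.2 and 47.6 against 2.31, 1.5, 1.52 and 1.64, and in OPCs (2.06). Of the rest, Kif2a, which trims microtubules in growing axons, was highest in neuroblasts at 226, 221, 187 and 237, apart from all other classes, and lower than in LS neurons in the 4 glial classes (-0.95 to -0.59), although the OPC call was lost without BALB/c (-0.44). Kif1bp was higher in OLs (0.64).

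Outside the dividing nuclei the mitotic genes rested on few UMIs. They passed the filter through the dividing nuclei. The folds, adjusted p values and calls that follow are therefore only listed, and none is read as support for a difference. The counts of all members called against LS neurons include them. Kif20b had 5.12, 9.68, 8.92 and 14.8 CPM in microglia against 0.76, 0.888, 0.591 and 0.566 in LS neurons (log2 3.38 ± 0.41, adjusted p = 1.361e-09) on 24 UMIs. Kif4 (1.67), Kif11 (1.55) and Kif15 (1.15) were called higher in microglia on 10 to 20 UMIs, but without BALB/c all of them lost the call, at 1.27 (adjusted p = 0.1942), 1.36 (0.09007) and 0.81 (0.2383). Kif4 and Kif11 also lost it without C57J 2 (adjusted p = 0.06974 and 0.05953) and Kif15 without C57J 1 (adjusted p = 0.0686). Kif18b was called there too (4.64 ± 1.02, adjusted p = 0.0002245), on 5 UMIs in microglia and 6 in LS neurons. In OPCs Kif18b (4.52 ± 0.73, adjusted p = 3.879e-06, on 11 UMIs), Kif20b (2.85) and Kif18a (1.39) were higher. Kif23 was called lower in OPCs, but not without Nude (-1.04) or without BALB/c (-0.87). Neuroblasts had higher Kif20b (3.83), Kif18a (2.11) and Kif11 (1.91), and without Nude the calls of Kif18a (1.80, adjusted p = 0.05167) and Kif11 (1.47, adjusted p = 0.1268) were lost. Kif18b was called in neuroblasts on 2 UMIs, too few for a fold. Kif23 was lower in astrocytes (-2.62 ± 0.34), OLs (-2.55) and striatal neurons (-1.17 ± 0.30, adjusted p = 0.0022), where LS neurons had 4.26, 4.2, 4.31 and 4.42 CPM. Kif18a was called higher in striatal neurons (0.91 ± 0.35, adjusted p = 0.041) and lost the call when any 1 library was left out. With every nucleus thinned to 1000 UMIs the log2 fold changes of Kif11 in microglia and of Kif18a in OPCs turned to -0.48, and with predicted doublets kept that of Kif23 in OPCs turned to 0.08.

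Among the 9 clusters of LS neurons 27 members were tested and 8 were called, by an adjusted p under 0.05 and a range of fitted log2 levels over 1, where 32.6% of all genes tested were called. The median range over the 27 members was 0.55. Kif26b had the clearest pattern. It reached 232, 228, 230.1 and 230.3 CPM in the cluster led by Gm45194 and Otx2os1 and 43.1, 35, 45 and 47.1 in the cluster led by 2600014E21Rik and Pax6 (range 2.27, adjusted p = 3.274e-22). Within a cluster the libraries of different strains lay closer to each other than the 2 clusters did. Kif17 reached 50.2, 33.7, 43.4 and 49.1 in the cluster led by Kynu and Nts, the gene of neurotensin, and 17.4, 15.6, 15 and 15.4 in the cluster led by 6330411D24Rik and Pde1c (range 1.47, adjusted p = 7.21e-12). Kif6 went from 24.6 ± 4.2 CPM (SD, n = 4 libraries) in the cluster led by Drd3, the gene of a dopamine receptor, to 7.21 ± 2.36 in that led by Met (range 1.80), and Kif27 from 25.9 ± 5.4 in the cluster led by Cpa6 to 11.5 ± 4.3 in the Drd3 cluster (range 1.26). Kif26a (2.28), Kif18a (1.69), Kif15 (1.52) and Kif23 (1.06) were also called, at levels of up to 7.92 CPM in any cluster and library. None of the kinesin-1 and kinesin-3 transport genes was called. Each had an adjusted p under 0.05 but a range under the limit, from 0.28 for Kif1a to 0.96 for Kif16b. Kif5c, for example, went from 329 ± 16.0 in the Cpa6 cluster to 249 ± 18.1 in the Pde1c cluster.

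**Figure D4:**
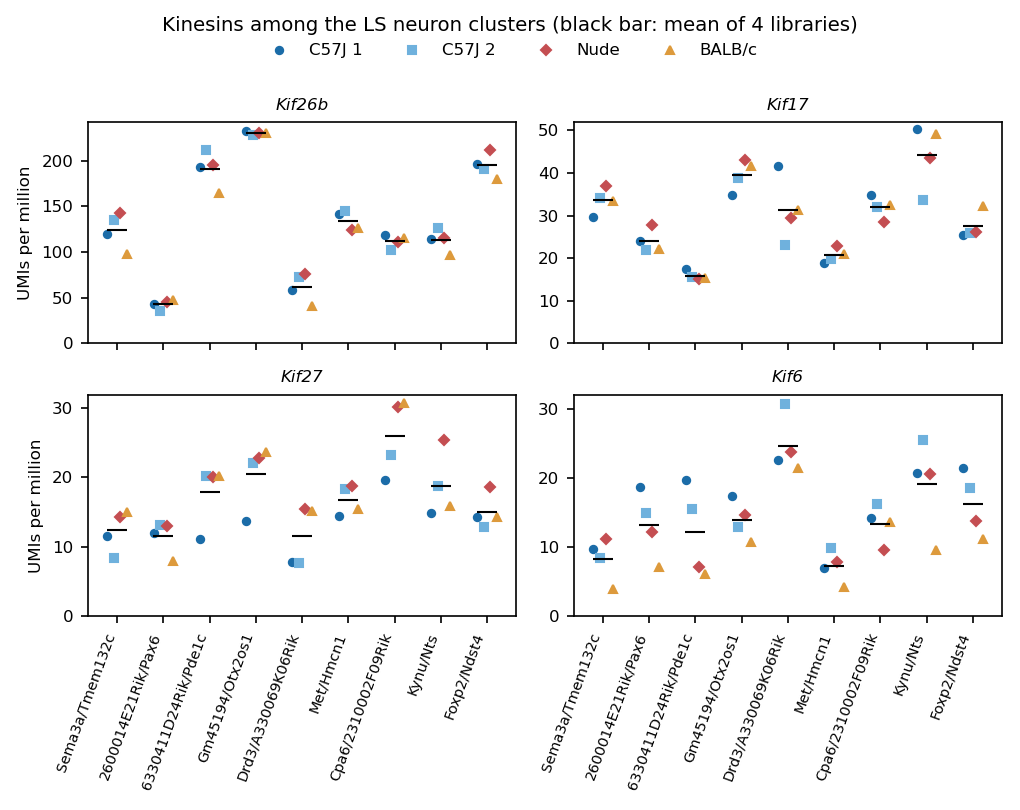
Levels (CPM) of Kif26b, Kif17, Kif27 and Kif6 in the 9 LS neuron clusters, named by their leading genes, with 1 point per library and a bar at the mean of 4 libraries. Kif26b spans from 35 CPM in the Pax6 cluster to 232 in the Otx2os1 cluster with the libraries of a cluster close together, and Kif6 is highest in the Drd3 cluster.

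The strain backgrounds were compared within 7 classes, with both C57J libraries on 1 side and Nude and BALB/c together on the other. No member was called in any class. In LS neurons 0 of 33 members tested were called, where 2.25% of all genes were, in striatal neurons 0 of 27 against 0.541%, in astrocytes 0 of 28 against 0.0568%, in OLs 0 of 22 against 0.00854%, in OPCs 0 of 21 against 0.257%, and in microglia 0 of 17 and dividing nuclei 0 of 25 against 0% in both. At an unadjusted p under 0.05 the edgeR test held 4, 3, 2, 1, 2, 0 and 2 members in this order of classes. The share of all genes at that level was not counted, so these counts cannot be set against it. DESeq2 called 0 members in each class. With 2 libraries a side, 1 of Nude and 1 of BALB/c, the spread between libraries is poorly known and small differences would be missed.

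Kif5b came close in LS neurons, where it had 146 and 142 CPM in the C57J libraries against 107 in Nude and 99.9 in BALB/c. Its log2 fold change was -0.46 ± 0.08 with an adjusted p of 0.03345 (edgeR), which missed the limit on size. Its fitted difference was -0.45 ± 0.12 in striatal neurons, -0.45 ± 0.16 in astrocytes, -0.61 ± 0.22 in OLs, -0.42 ± 0.18 in OPCs, -0.37 ± 0.27 in microglia and -0.25 ± 0.29 in dividing nuclei, with adjusted p from 0.2317 to 0.9607 in these classes. Both C57J libraries lay above the other 2 in 6 of the 7 classes, all but dividing nuclei, which held for 1.94% of the 5248 genes tested in all 7 classes and for Kif5b alone of the 13 members among them, and C57J 2 shares its batch with Nude and BALB/c. The classes come from the same mice and are not independent. In 4 or more classes the C57J libraries lay above for Kif5b, Kif5a and Kif3c, 3 of 13 members against 10.4% of genes, and below for Kif16b, 1 of 13 against 5.74%. Of the 33 members tested in at least 2 classes, 4 had the C57J libraries above in 1 class and below in another, against 20.5% of 14831 genes. Kif5a in dividing nuclei stood at 157 and 159 against 69.9 and 57.4 (-1.35 ± 0.30, adjusted p = 0.66). In LS neurons Kif13a, at 51.5 and 51.8 against 60.8 and 64.5 (0.30 ± 0.09, adjusted p = 0.1618), and Kif13b, at 53.3 and 57 against 70.4 and 65.5 (0.32 ± 0.09, adjusted p = 0.1336), lay the other way. Kif26b in striatal neurons stood at 76.9 and 88 in C57J against 129 and 122 (0.64 ± 0.13, adjusted p = 0.081), and C57J 1 supplied 330 of the 429 nuclei of 1 striatal cluster, whose part in this was not tested. The astrocytes too were spread unevenly over their clusters, of which 1 held 1062 BALB/c nuclei among 1202 and another 561 Nude nuclei among 752, and the part of this in the astrocyte values was not tested. Without Nude, which leaves BALB/c alone on its side, Kif26b and Kif5b were called in striatal neurons, Kif21b in astrocytes, Kif21b and Kif16b in OLs, Kif5a and Kif5b in OPCs and Kif5a in dividing nuclei. The share of all genes called rose in that setting as well, to 3.31% in striatal neurons, 5.95% in astrocytes, 6.51% in OLs, 4.2% in OPCs and 1.84% in dividing nuclei. Without BALB/c, which leaves Nude alone on its side, the log2 fold change of Kif26b in striatal neurons was 0.67. With all 4 libraries but no filter on low counts Kif26b was called in striatal neurons (0.64, edgeR adjusted p = 0.007288), where 1.95% of all genes were. Within batch 2 alone, without C57J 1, no member was called, but C57J 2 then stands alone, is assumed to vary as Nude and BALB/c do from each other, and of all genes tested 0% were called in astrocytes, OLs and microglia.

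**Figure D5:**
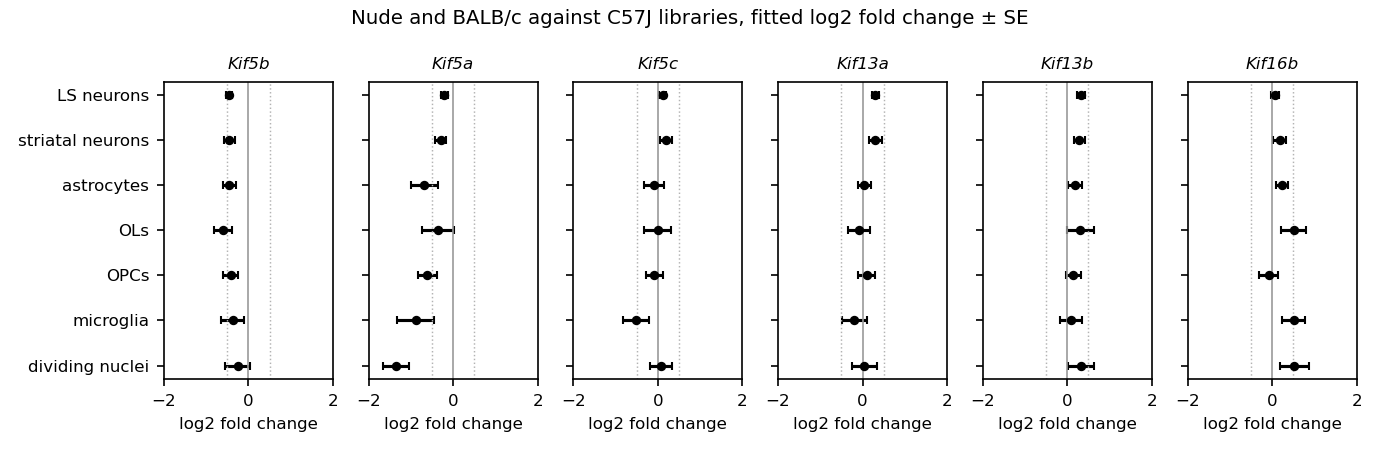
Fitted log2 fold change ± SE of Nude and BALB/c relative to the C57J libraries for 6 transport kinesins in 7 classes, with dotted lines at -0.5 and 0.5. Every point of Kif5b lies left of 0, from -0.61 in OLs to -0.25 in dividing nuclei, and no point was called.

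Genes that work with or against these motors were counted from lists of 5 kinesin-14 and Cenpe genes, 11 light chains and adaptors of kinesin, and 11 dynein and dynactin genes. Kinesin light chains couple cargo to kinesin-1, and dynein walks the opposite way along the microtubule. In astrocytes, where 27.6% of all genes were higher and 26.7% lower, 1 was higher and 2 lower of the first list, 2 and 2 of the 10 tested of the second, and 2 and 4 of the third, and in OLs (26.1% and 30.1%) the counts were 0 and 2, 3 and 3, and 3 and 4. Kifc3, a kinesin-14 of cell junctions, was higher in astrocytes (log2 1.99 ± 0.10, adjusted p = 7.099e-22) and in OPCs (0.85 ± 0.12). Trak1, the adaptor that links kinesin-1 to mitochondria, was higher in astrocytes (1.47 ± 0.13, adjusted p = 4.241e-14) and lower in OLs (-1.31 ± 0.15, 1.029e-10). In OPCs (21.3% and 24%) the counts were 1 and 1, 1 and 1, and 2 and 4, in microglia (27.1% and 27.7%) 0 and 2, 1 and 2, and 2 and 3, in neuroblasts (17.5% and 21.2%) 0 and 1, 2 and 2, and 2 and 2, and in striatal neurons 1 gene was called, Dynll1, a dynein light chain. With 5 to 11 genes a list, these counts set no list apart from all genes. Dync1i1, the neuronal intermediate chain of dynein, was lower in astrocytes (-2.44 ± 0.18), microglia (-2.20 ± 0.19), OLs (-1.82 ± 0.17), OPCs (-1.59 ± 0.17) and neuroblasts (-1.13 ± 0.18). Dividing nuclei, where 7.7% of all genes were higher than in neuroblasts and 6.54% lower, had 1 lower gene of the second list (Fez1, -0.77 ± 0.18). Of the third, 1 was higher (Dync2h1, the dynein of cilia, 0.67 ± 0.14) and 1 lower (Dync1i1, -1.23 ± 0.24). Of the first list Kifc1, Kifc5b and Cenpe were higher. Cenpe was among the markers of the class, and the Kifc genes were not kept out of the clustering. Because cell cycle genes defined these nuclei, the 3 describe the class and are not set against the share of all genes. Kifc1 and Kifc5b are near-identical genes whose reads may be shared. In the strain contrast 1 gene of the lists was called, Dctn1, the large subunit of dynactin, in LS neurons (-0.96 ± 0.13, adjusted p = 0.0133).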

How the data were processed

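The authors aligned the reads of each library to mm10 with Cell Ranger 7.0.1 and deposited the raw UMI counts of every gene in every barcode, unnormalized. The use of intronic reads is not given in the sources used here. Here barcodes with 200 to 6000 genes, 300 to 50000 UMIs and at most 2% mitochondrial UMIs were kept, and 10.05% to 13.62% of those per library were removed as predicted doublets, scored against simulated doublets. The libraries were clustered together with leidenalg 0.10.2 on variable genes that held 0 of the kinesins, and clusters were named from marker genes. Each marker list needed at least 3 detected genes, and clusters led by more markers of another class than of their own stayed unnamed.

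UMI counts were summed per library and class and fitted over all genes with edgeR 4.0.16 in R 4.3.3 (filterByExpr, TMM, quasi-likelihood F test, Benjamini-Hochberg adjustment), with library as a term in the class and cluster contrasts, and SE was taken from the fold change and the F value. DESeq2 1.42.0, its size factors, no filter, each library left out, doublets kept, thinning to 1000 UMIs (20 to 157 nuclei per library left out), resolution 2 and no library term were tried, and keeping the unnamed clusters in their class was added after seeing the data. The steps were tested on simulated data. A library pools 3 mice, so no p-value measures the spread between mice. In the class and cluster contrasts the p-values rest on the scatter left once differences between libraries are taken out. In the strain contrast they rest on the difference between the C57J libraries, of different batches, and that between Nude and BALB/c. Nothing says how much of this scatter is technical.

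The members and lists were chosen with earlier results of these data known. Values are given for members called in a strain contrast, for the 2 largest rises and falls of each class contrast and for the kinesin-1, kinesin-2, kinesin-3 transport and mitotic lists. Other members appear by counts, or were named after their values were seen, among them Kif24, Kif2a, Kif6, Kif9, Kif27, Kif21a and Kif21b outside the contrasts where the rule takes them, and the genes named from the pathway lists. Positions and promoters come from tables of GENCODE M21 and RefSeq (GRCm38.p6).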

Additional observations from a re-analysis of the deposited data

Results flagged for a closer look

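Groups of 2, 1 and 1 libraries are too small to look for single outlying libraries. Among the 33 members tested in at least 2 classes there were 4, namely Kif26b, Kif16b, Kif1c and Kif11, for which both C57J libraries lay above the Nude and BALB/c libraries in 1 class where the gene was tested and below them in another. The same held for 20.5% of 14831 genes. None of these differences between classes was tested, and no single value among them was called. Kif26b was higher in Nude and BALB/c by a log2 of 0.64 in striatal neurons and lower by -0.31 in OPCs. Kif16b, the endosome carrier, was higher by 0.18 in striatal neurons, 0.23 in astrocytes, 0.51 in OLs, 0.51 in microglia and 0.52 in dividing nuclei, with a log2 of -0.0825 in OPCs. Kif1c had 0.0837 in LS neurons and -0.37 in striatal neurons. Kif11 had 0.21 in LS neurons, -1.03 in astrocytes and -0.32 in dividing nuclei, and its level in LS neurons and astrocytes was under 3 CPM.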

How the results depend on the processing

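No paired analysis was possible because the strain groups share fewer than 2 replicate numbers, while in the class contrasts each library holds every class and served as a term. The strain contrast had 0 members called throughout in LS neurons and microglia. In striatal neurons it had 1 without the filter on low counts and 0 to 2 when a library was left out, in astrocytes 0 to 1, in OLs 0 to 2, in OPCs 0 to 2 and in dividing nuclei 0 to 1. With nuclei thinned to 1000 UMIs, which leaves fewer UMIs, 30 members were tested. Then 1 was higher in striatal neurons, 5 higher and 8 lower in astrocytes, 5 lower in OLs and 6 lower in OPCs. In neuroblasts 4 were higher and 5 lower, and 2 non-mitotic ones were lower in dividing nuclei. In either direction 2 of 30 members and 1818 of 9566 genes were called in striatal neurons. The like counts were 13 and 4900 in astrocytes, 13 and 5233 in OLs, 12 and 3803 in OPCs and 9 and 3211 in neuroblasts. In dividing nuclei 774 genes were called in either direction. The share of genes called in a single direction was not counted for these alternative settings. Among LS clusters 5 members were called when thinned and 5 with no library term. The share of all genes called among LS clusters in these settings was not counted, so these counts cannot be set against it. In striatal neurons 2 were lower without the filter, with no library term or with the unnamed clusters kept. In either direction 6 of 38 members and 4443 of 27244 genes were called without the filter. With no library term these were 5 of 36 and 2669 of 13813, and with the unnamed clusters kept 6 of 36 and 3333 of 13816. When a library was left out, 1 to 2 were lower there. With predicted doublets kept 14 were higher in OPCs, where 22 of 36 members and 5892 of 14831 genes were called in either direction. DESeq2 called 13 higher in neuroblasts, where it called 21 of 36 members and 5453 of 13813 genes in either direction. The cause was not tested. All counts against LS neurons given here include the mitotic members. Over the libraries left out 7 to 11 were lower in OPCs, 5 to 8 higher in microglia and 4 to 8 higher in neuroblasts. In dividing nuclei 2 to 5 non-mitotic members were lower. Of 13758 to 14130 genes tested, 5754 to 6070 were called in either direction in OPCs and 6889 to 7400 in microglia. The like numbers were 4450 to 4851 in neuroblasts and 1263 to 1648 in dividing nuclei. Of the 36 members 16 to 19 were called in either direction in OPCs, 16 to 20 in microglia and 12 to 16 in neuroblasts. Kif23 in striatal neurons lost its call when thinned (-0.81), and Kif26a in dividing nuclei lost it when thinned (-2.48), without C57J 2 (-1.79) and without BALB/c (-1.49). Kif13b in OLs stayed between 3.01 and 3.26 and Kif24 in dividing nuclei between 3.19 and 3.63 over the libraries left out. Beside the values of the named genes, 83 further calls gave 984 values under an alternative, of which 884 kept direction and side of the threshold, 97 kept direction only and 3 turned, namely Kif18a in OPCs and Kif11 in microglia when thinned (both -0.48) and Kif23 in OPCs with doublets kept (0.08). Depth limits the mitotic genes outside dividing nuclei, where single genes rest on 2 to 24 UMIs in a class such as neuroblasts or microglia.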
